A study of Mus musculus with 4 samples.

Results

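Kinesins are motor proteins that walk along microtubules, and their genes carry the symbol Kif in the mouse. The genes described here are the protein-coding genes of the deposited expression table whose symbol starts with Kif followed by a digit or the letter c, 40 of 20421 genes in all. One of them, Kif1bp, encodes a protein that binds kinesins and is not itself a motor. RNA was sequenced from the brain of C57BL/6 embryos taken on embryonic day 15. One group carries the label FOXM1f/+;Nestin-Cre, and the other is labelled WT. FOXM1 is a transcription factor of the later cell cycle, the series' title names the human gene, and Nestin-Cre is a Cre recombinase active in neural progenitors and in the neurons and glia that derive from them. Although 4 samples are listed, 2 for each genotype, read counts come as 1 column for each genotype, and which embryo or pool stands behind a column is not stated, although the design text speaks of triplicates. Of the WT samples, one has nestin in its title and the other foxm1, so either allele may be present in the control column. Below, the columns are called the transgenic and WT libraries, though each may be a pool.

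In dividing cells one set of kinesins builds the spindle, moves chromosomes and ends division by cytokinesis. Many of these genes are made mostly in dividing cells, late in the cell cycle, though some, Kif11, Kif15 and Kif23 among them, also act in young neurons. Another set hauls vesicles, mitochondria and proteins from the cell body down the axon, and some of its members are made almost only in neurons. An embryonic brain holds dividing progenitors and young neurons side by side, so both sets can be read in one RNA sample.

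Depth was similar, at 17856653 reads for the transgenic and 17543705 reads for the WT library. With 1 column per genotype no difference has a replicate check and no p-value was computed. Ratios are of counts scaled to the size of the library (CPM), transgenic over WT. The 95% interval after each ratio is an exact interval for counting error alone, and the spread between animals is not in it. No molecular identifiers were counted, so several reads can stem from one molecule. Foxm1 itself had 1289 reads in the transgenic and 1139 in the WT library, a ratio of 1.11 (1.03 to 1.21). This row counts the annotated mouse gene, so it is at most a weak check of a human transgene. The libraries also differed in sex content, with 9628 against 5 reads of Xist and 0 against 484 reads of the Y-linked Ddx3y. Genotype and sex cannot be told apart in any ratio below.

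All 40 genes had a mean of at least 1 CPM, the minimum used for the tested genes. Their reads summed to 67294 in the transgenic library (3768 CPM) and to 68528 in WT (3905 CPM), and the ratio of the sums was 0.965 (0.955 to 0.975). The makeup of this sum differed more than its size. The 13 mitotic kinesins took 14.2% of kinesin reads in the transgenic library (exact Clopper-Pearson interval 13.9 to 14.4) and 10.9% (10.7 to 11.2) in the WT library. The 8 axonal kinesins took 48.7% (48.3 to 49.0) and 52.1% (51.7 to 52.5). The 8 kinesins of other neuronal cargo and of the growth cone took 26.5% and 26.7%. Most kinesin reads were thus of these or of axonal motors, some of them made in many cell types. The mitotic part of the reads was larger in the transgenic library. Reads were not divided by gene length here.

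To compare one gene with another, CPM was divided by the length of the gene's merged exons, a level in CPM per kilobase of exon. On this scale the highest kinesins of the WT library were Kif5c at 63.3, Kif21b at 57.5, Kif1a at 53.1 and Kif5a at 42.1, all known as motors of neurons. They held the same 4 places in the transgenic library, at 60.9, 54.98, 45.4 and 36.0. The highest mitotic kinesin was Kif22, at 14.6 in WT and 18.1 in the transgenic library, and it moved from place 12 to place 8. Kif11 moved from place 18 to 15 and Kif3b from place 15 to 18. The lowest level was that of Kif6, at 0.360 in WT and 0.223 in the transgenic library. Levels thus differed widely within the family, and the first 4 places did not change.

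**Figure D1:**
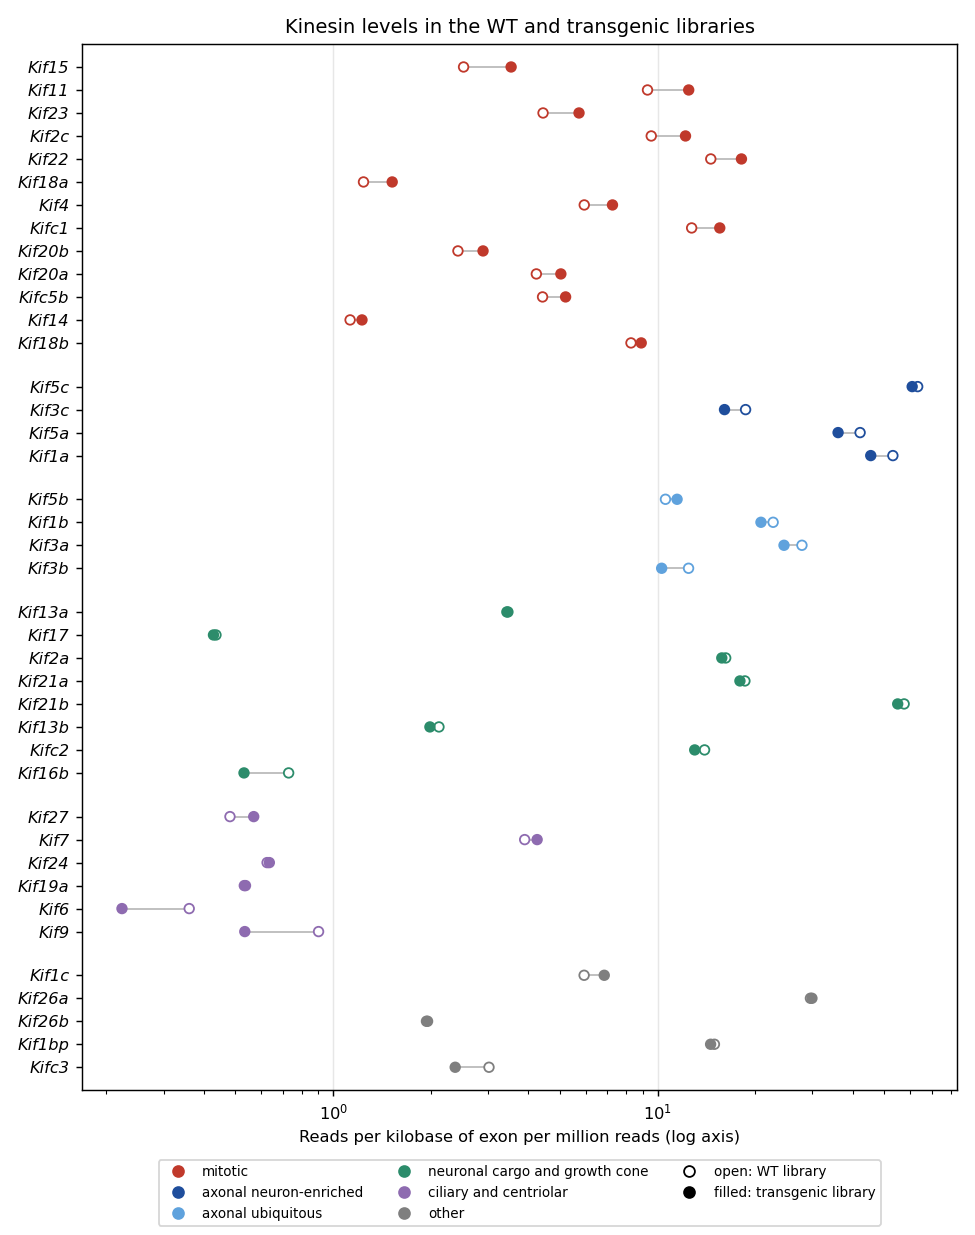
Level of each kinesin gene as CPM per kilobase of exon (log axis), open circles for the WT library and filled circles for the transgenic library, 1 column each, coloured by role. Filled circles lie to the right of open ones for all 13 mitotic genes and to the left for 7 of 8 axonal genes, and Kif5c at 63.3 in WT is the highest.

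Mitotic kinesins were higher in the transgenic library. All 13 had ratios above 1, from 1.08 for Kif18b to 1.40 for Kif15, and 8 of 13 were at least 1.2-fold higher, while none was lower. Of all 14557 tested genes, 11.5% were at least 1.2-fold higher, and 6.63% of those with a mean of at least 10 CPM, a level that every mitotic kinesin reached. The median log2 ratio of the 13 genes was 0.29, against -0.01 over all tested genes. Counting intervals lay wholly above 1 for 11 of 13, against 16.5% of all tested genes. The summed mitotic reads gave a ratio of 1.25 (1.21 to 1.29).

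Among the motors that set up the spindle, Kif15 and Kif11 had the largest ratios of the mitotic genes, while Kifc1 and Kifc5b lay below Kif23, Kif2c and Kif22. Kif15, a motor that helps hold the spindle poles apart, had 696 reads in the transgenic and 488 in the WT library, 39.0 against 27.8 CPM. Its ratio of 1.40 (1.25 to 1.58) placed it at percentile 96.2 of all tested genes. Kif11 (ENSMUSG00000012443; chromosome 19, 37376403 to 37421859, plus strand, GRCm38) slides spindle microtubules apart and is needed for a bipolar spindle. It had 1662 against 1219 reads, 93.1 against 69.5 CPM, a ratio of 1.34 (1.24 to 1.44). Kif11 thus had the most reads of any mitotic kinesin in the transgenic library, while in WT Kif22 had more (1255), and by ratio Kif11 came after Kif15. Kifc1, which walks the opposite way and gathers microtubule ends at the poles, had 948 against 763 reads and a ratio of 1.22 (1.11 to 1.34). Its close relative Kifc5b had 344 against 287 reads and a log2 ratio of 0.24 (0.01 to 0.47). The copies share much sequence: 39.7% of the 50-base stretches of Kifc1 transcripts also occur in transcripts of other genes, mostly Kifc5b, so the split of reads between them is uncertain.

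Other motors act on chromosomes and microtubule ends. Kif2c, which takes microtubules apart at kinetochores and helps to correct wrong attachments, had 950 against 732 reads and a ratio of 1.28 (1.16 to 1.41). Kif22, a chromokinesin that pushes chromosome arms outwards, had 1588 against 1255 reads and a ratio of 1.24 (1.15 to 1.34). Kif18a, which steadies chromosomes at the spindle equator, had 267 against 214 reads and a ratio of 1.23 (1.02 to 1.47). These genes differ several-fold in level and had much the same ratio. Kif4, a chromokinesin on chromosome X, had 715 against 575 reads and a ratio of 1.22 (1.09 to 1.37); it overlaps Pdzd11 on the opposite strand over 15.1% of its exon bases. Kif18b, which keeps the outer spindle microtubules short, had 568 against 519 reads and a ratio of 1.08 (0.953 to 1.21). Its interval spanned 1.

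The late stages of division have their own kinesins. Kif23, the motor of the centralspindlin complex that marks the plane of cytokinesis, had 808 against 615 reads and a ratio of 1.29 (1.16 to 1.44), behind only Kif15 and Kif11 among the mitotic genes. Kif20a, which brings Aurora B kinase to the central spindle, had 390 against 322 reads and a ratio of 1.19 (1.02 to 1.38). Kif20b, which serves the final cut between daughter cells, had 360 against 296 reads and a ratio of 1.19 (1.02 to 1.40). Both Kif20 genes thus had the same ratio within their counting error. For Kif20a, 29.3% of exon bases also belong to Cdc23 on the opposite strand, and the sources used here do not say whether counting used strand. Kif14, another cytokinesis motor, had 227 against 205 reads and a ratio of 1.09 (0.897 to 1.32), with an interval that spanned 1.

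Of 8 markers listed for dividing progenitors (Mki67, Top2a, Pcna, Nes, Vim, Sox2, Pax6 and Fabp7), all had ratios above 1 and 4 were at least 1.2-fold higher, against 11.5% of all tested genes. The interval of Pax6 spanned 1 (0.976 to 1.14), and the other 7 lay above 1. Their reads summed to 2788 against 2258 CPM, a ratio of 1.23 (1.22 to 1.25). Markers of red blood cells were higher in sum too, at 979.5 against 698.9 CPM, a ratio of 1.40 (1.37 to 1.43), with 3 of 6 above and 3 below 1. Choroid plexus markers summed to 12.4 against 691 CPM. No marker of these lists was at 0 reads. The part of these cell types in the ratios of the mitotic kinesins was not tested. In whole tissue, a change in the number of cells of a type and a change in RNA per cell cannot be told apart.

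**Figure D2:**
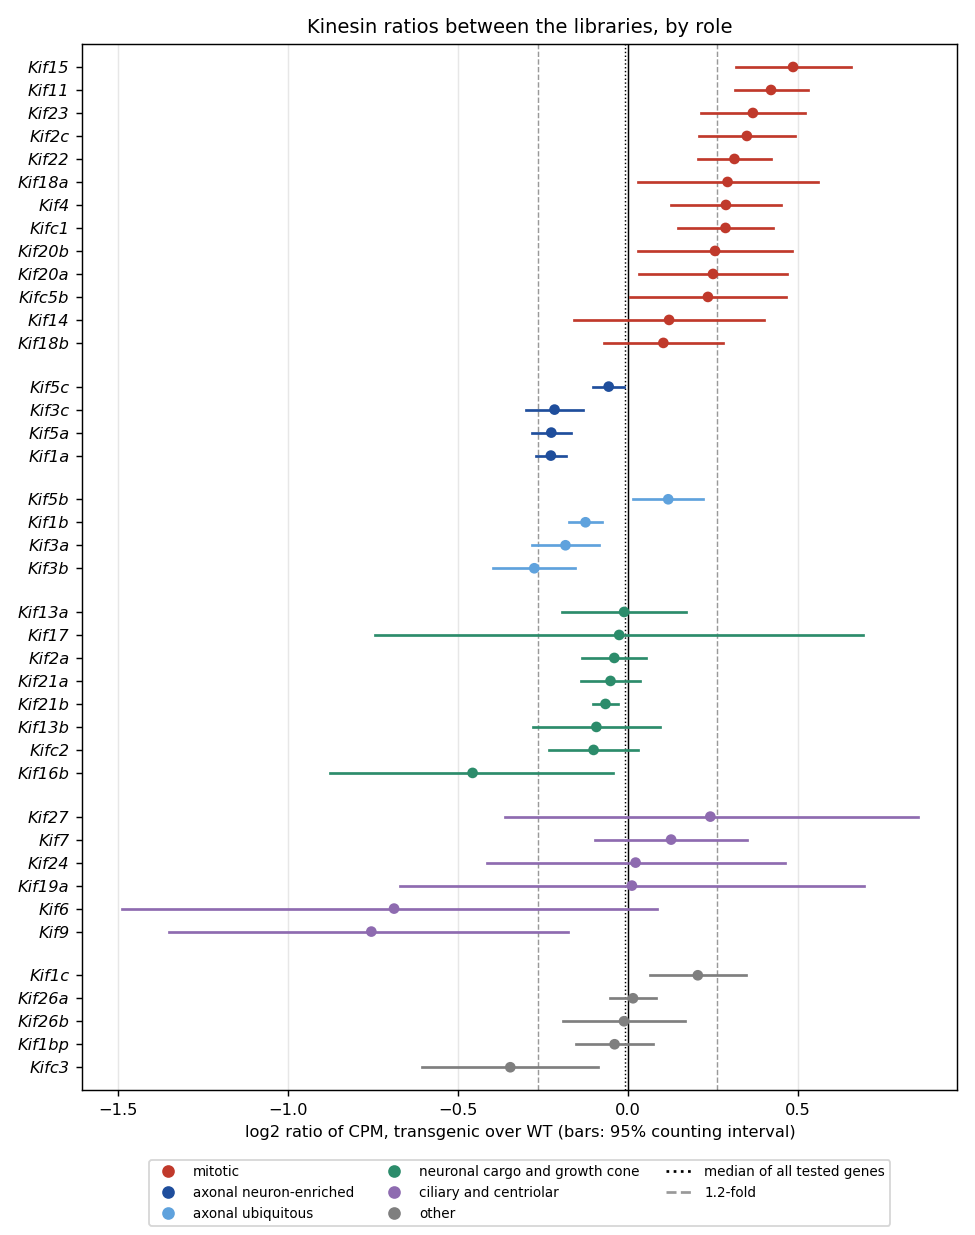
The log2 ratio of CPM, transgenic over WT, for each of 40 genes grouped by role, with bars for 95% counting intervals, a dotted line at the median of all tested genes and dashed lines at 1.2-fold. All 13 mitotic genes lie right of 0, and among the 8 axonal genes only Kif5b does.

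Many promoters of cell cycle genes carry a short element near the start called the cell cycle genes homology region (CHR), which is known to bind the MuvB complex, a partner of FoxM1 and B-Myb. RefSeq promoters (GRCm38.p6, from 250 bases before the start to 50 after it) were matched for 31 of 40 genes. Kif13b, Kif19a, Kif1bp, Kif20a, Kif21b, Kif5a, Kif5b, Kifc2 and Kifc3 had none. TTTGAA or TTCGAA on either strand was counted as a CHR match. It occurred in 11 of 12 mitotic promoters (91.7%), in 1 of 8 promoters of 6 axonal kinesins (12.5%), in 3 of 15 promoters of the remaining kinesins (20%) and in 19.2% of all 32851 promoters. The stretches of 30 bases around the match nearest to the start are shown because they hold what these promoters share. Each is on the gene's strand with every CHR match in capitals (TTCAAA is TTTGAA on the other strand).
Kif11, chr19:37376351-37376380, plus strand: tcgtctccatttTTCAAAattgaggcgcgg
Kif15, chr9:122951050-122951079, plus strand: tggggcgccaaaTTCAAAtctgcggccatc
Kif22, chr7:127042420-127042449, minus strand: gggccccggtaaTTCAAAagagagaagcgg
Kif23, chr9:61946780-61946809, minus strand: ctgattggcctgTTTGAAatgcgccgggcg
Kif18b, chr11:102925104-102925133, minus strand: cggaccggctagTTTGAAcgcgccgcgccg
Kif20b, chr19:34922353-34922382, plus strand: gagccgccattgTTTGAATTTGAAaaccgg
Kif4, chrX:100626072-100626101, plus strand: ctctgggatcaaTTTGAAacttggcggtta
Kifc1, chr17:33890615-33890644, minus strand: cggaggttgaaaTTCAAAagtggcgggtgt
Kifc5b, chr17:26917108-26917137, plus strand: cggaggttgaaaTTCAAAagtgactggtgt
Kif2c, chr4:117178858-117178887, minus strand: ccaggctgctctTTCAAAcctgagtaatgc
Kif14, chr1:136467608-136467637, plus strand: ggaggtcctgtcTTTGAAgtctgcagtgtc

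The match lay within 50 bases of the start in 9 of 12 mitotic promoters (75%), against 5.31% of all promoters; this distance was chosen after the positions had been seen. Counted in bases from the start, with negative values before it, the match began at -19 in Kif11 and Kif15, at -17 in Kif22, at 2 in Kif23 and at 3 in Kif18b. The stretches of Kifc1 and Kifc5b look alike along most of their length. In Kif2c the match began at -103 and in Kif14 at -228, and Kif18a had none. The promoter windows of Kif2c, Kif14 and Kif4 lie wholly inside the genes as annotated by GENCODE M21. Their distances thus hold for the RefSeq start alone. Kif18b and Kif14, the mitotic genes with the smallest ratios, both had a match, and Kif18a had a ratio of 1.23 without one.

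A second promoter element, the CCAAT box (CCAAT on either strand), is bound by the factor NF-Y. It was found in 8 of 12 mitotic promoters (66.7%) and in 37.4% of all promoters. Axonal kinesins had it in 4 of 8 promoters (50%), those of Kif1b, Kif3a and Kif3b, and the remaining kinesins in 4 of 15 (26.7%). All 8 mitotic promoters with the box also had a CHR match. This combination was held by 0 of 8 axonal promoters, 3 of 15 of the remaining kinesins and 7.52% of all promoters. The forkhead core (TGTTTA or TGTTTG on either strand), the kind of site that forkhead proteins such as FOXM1 bind by themselves, was found in 3 of 12 mitotic promoters (25%) and in 28.2% of all promoters. In Kif23 and Kif20b that match shares bases with the CHR match. Kif11 is shown as an example with both elements in 150 bases before the start, and Kif5c, the kinesin of highest level, for contrast. In capitals are CHR and CCAAT matches (ATTGG is CCAAT on the other strand), and Kif5c has neither.
Kif11, chr19:37376232-37376381, plus strand: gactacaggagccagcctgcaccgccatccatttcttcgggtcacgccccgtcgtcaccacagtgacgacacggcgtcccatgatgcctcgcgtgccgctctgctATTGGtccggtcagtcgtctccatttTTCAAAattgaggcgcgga
Kif5c, chr2:49619136-49619285, plus strand: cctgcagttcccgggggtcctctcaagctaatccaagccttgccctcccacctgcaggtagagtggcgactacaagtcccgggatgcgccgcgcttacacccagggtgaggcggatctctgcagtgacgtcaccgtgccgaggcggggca

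**Figure D3:**
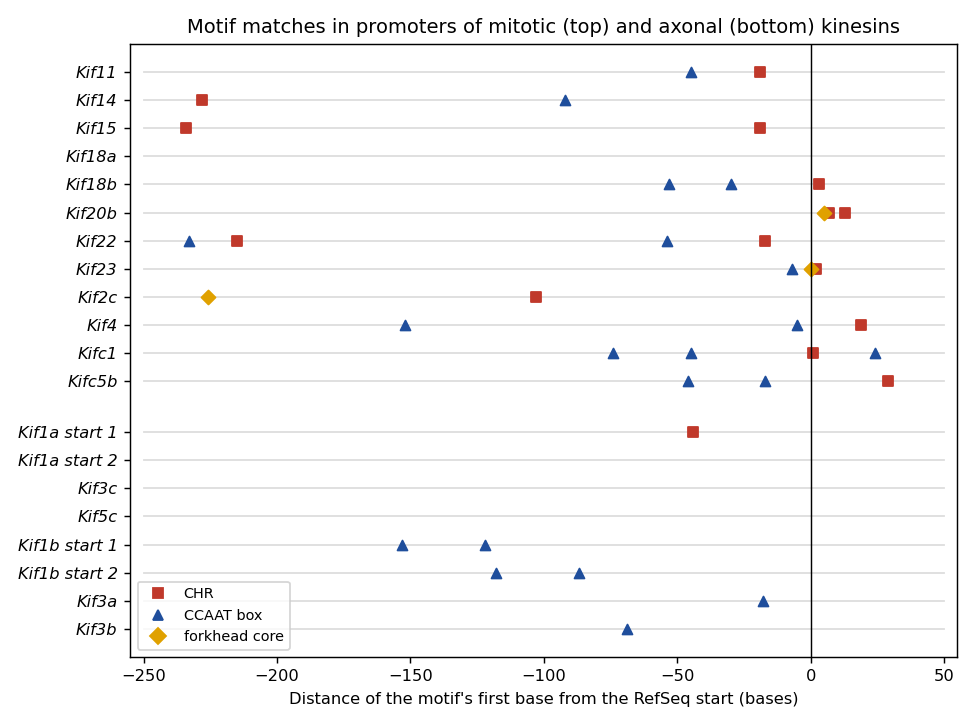
Distance from the RefSeq start, in bases, of CHR (squares), CCAAT (triangles) and forkhead core (diamonds) matches in 12 mitotic and 8 axonal kinesin promoters, each drawn from 250 bases before to 50 after the start. CHR matches gather near the start in the upper set, within 50 bases in 9 of 12 promoters, and the lower set has 1.

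Axonal kinesins were mostly lower in the transgenic library, by small amounts. Of 8 genes, 7 had ratios below 1 with intervals wholly below 1, and 1, Kif5b, lay above. By size 1 of 8 (12.5%) was at least 1.2-fold lower, Kif3b, against 15.7% of all tested genes and 7.85% of those whose mean reached 10 CPM, and nothing is read from this single gene. Intervals wholly below 1 were found for 19.2% of all tested genes and for 25.9% of those with a mean of at least 50 CPM, a level that each axonal kinesin passed. The median log2 ratio of the 8 genes was -0.20, against -0.01 over all tested genes. The summed reads gave a ratio of 0.901 (0.888 to 0.915).

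Of the axonal motors that are made mainly in neurons, Kif1a, which carries precursors of synaptic vesicles, had 7565 reads in the transgenic and 8697 in the WT library, 424 against 496 CPM. It was 1.17-fold lower (1.13 to 1.21). Kif5a (ENSMUSG00000074657; chromosome 10, 127225696 to 127263348, minus strand, GRCm38), a heavy chain of conventional kinesin, had 4495 against 5163 reads, 252 against 294 CPM. It too was 1.17-fold lower (1.12 to 1.22). Kif3c, a partner of Kif3a, had 2127 against 2427 reads and a ratio of 0.861 (0.812 to 0.913). These genes thus had the same ratio within their counting error. For Kif3c, 43.3% of exon bases are also covered by antisense genes. Kif5c, another heavy chain of neurons, had 7770 against 7938 reads, 1.04-fold lower (1.01 to 1.07), so it stood nearer to 1 than the other 3.

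Among the axonal motors found in many cell types, Kif3b and Kif3a, which pair with each other in axons and in cilia, had 1036 against 1232 and 1571 against 1753 reads. Kif3b was 1.21-fold lower (1.11 to 1.32) and Kif3a 1.14-fold lower (1.06 to 1.22). Kif1b, which moves mitochondria and vesicle precursors, had 6550 against 7016 reads, 1.09-fold lower (1.05 to 1.13). Kif5b, the conventional kinesin heavy chain of most tissues, had 1637 against 1481 reads, 91.7 against 84.4 CPM, and a ratio of 1.09 (1.01 to 1.17). Kif5b was the single axonal kinesin on the higher side. The summed reads of the neuron-enriched genes had a ratio of 0.891 (0.874 to 0.907) and those of the widely expressed genes 0.924, a log2 ratio of -0.11 (-0.15 to -0.08). Neuronal markers lay on the same side. All 8 that were listed (Tubb3, Map2, Rbfox3, Dcx, Stmn2, Snap25, Syt1 and Mapt) had ratios below 1, and their sum was 6444 against 6950 CPM, 1.08-fold lower (1.07 to 1.09). The interval of Syt1 spanned 1 (0.923 to 1.05). By size 2 of 8, Mapt and Snap25, were at least 1.2-fold lower, against 15.7% of all tested genes. None of the 8 markers was at 0 reads, and their part in the axonal ratios was not tested.

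Set against each other, the mitotic and axonal kinesins overlapped in 1 gene each. Kif18b, the lowest mitotic gene at a log2 ratio of 0.10, lay just under Kif5b, the highest axonal gene at 0.12. The other 12 mitotic genes lay above every axonal gene, and the other 7 axonal genes below every mitotic gene. The difference of the medians was 0.49 on the log2 scale. From summed reads, the mitotic-to-axonal ratio was 1.39-fold (1.34 to 1.43) higher in the transgenic than in the WT library, with a normal-approximation interval of counting error.

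**Figure D4:**
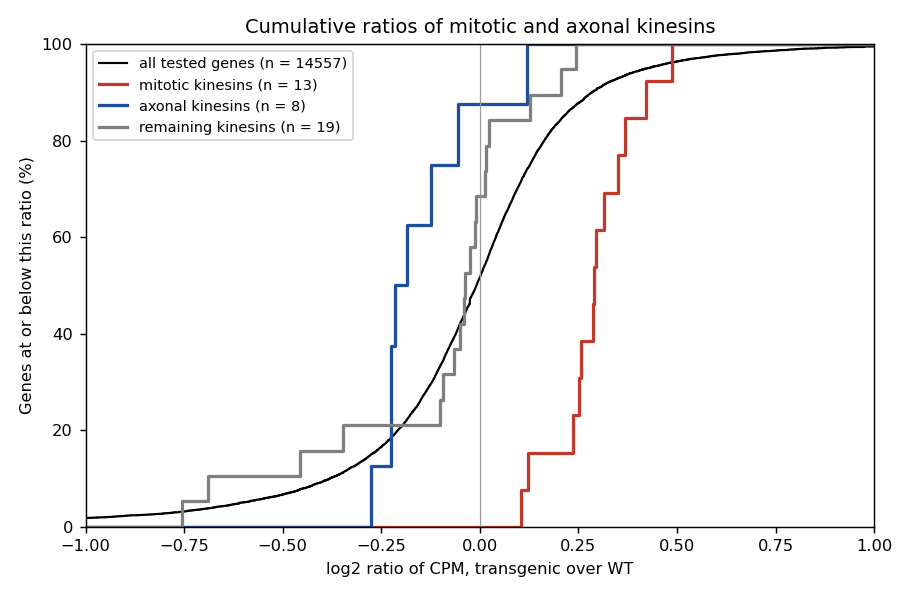
Cumulative share of genes (%) by log2 ratio of CPM, transgenic over WT, for 13 mitotic, 8 axonal and 19 remaining kinesins and for 14557 tested genes, with values beyond the axis clipped. The mitotic curve starts at 0.10, to the right of most of the axonal curve, whose median is -0.20, and the remaining kinesins have a median of -0.04.

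Kinesins come in subfamilies whose members share a motor design but differ in where they are made, so ratios were also compared within 11 subfamilies, over 17 pairs of genes. The interval of the difference left out 0 in 7 pairs and spanned it in 10, with no adjustment for their number. In conventional kinesin, the log2 ratio of Kif5b exceeded that of Kif5a by 0.34 (0.23 to 0.46) and that of Kif5c by 0.18 (0.06 to 0.29). Kif5c exceeded Kif5a by 0.17 (0.10 to 0.24). None of the 50-base stretches of Kif5a and Kif5c transcripts occurs in transcripts of another gene. In the Kif1 group, Kif1c, a vesicle motor of many tissues, exceeded the neuronal Kif1a by 0.43 (0.28 to 0.58) and Kif1b by 0.33 (0.18 to 0.48). Kif1b exceeded Kif1a by 0.10 (0.04 to 0.17).

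Among the microtubule depolymerases, Kif2c of the mitotic list exceeded Kif2a, listed here with neuronal cargo and growth cone kinesins, by 0.39 (0.22 to 0.56). In the conventional and Kif1 groups the gene that is made widely thus stood above the one that is made in neurons. In heterotrimeric kinesin the 3 motor genes lay together: Kif3a exceeded Kif3b by 0.09 (-0.06 to 0.25) and Kif3c by 0.03 (-0.10 to 0.16). There the neuron-enriched Kif3c stood above the widely made Kif3b, by 0.06 (-0.09 to 0.21), with an interval that spanned 0. Kif18a exceeded Kif18b by 0.19 (-0.13 to 0.51), which the reads could not tell from 0. Kif20b and Kif20a differed by 0.01 (-0.31 to 0.32) and Kif21a and Kif21b by 0.01 (-0.08 to 0.11). The Kif21 interval was the narrower, and the Kif21 genes had more reads.

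**Figure D5:**
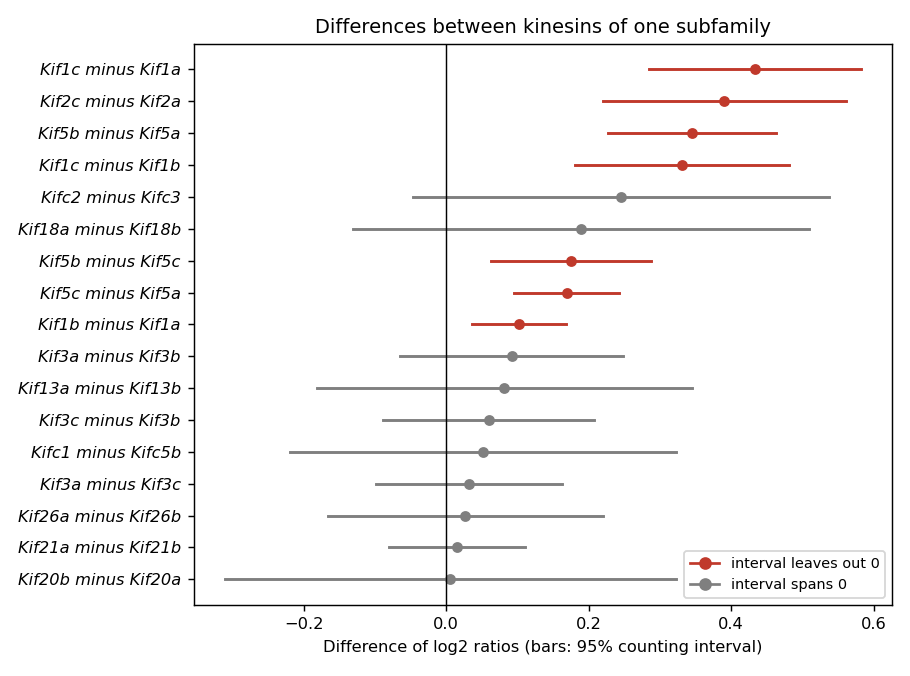
Difference of log2 ratios between kinesins of one subfamily, the gene with the higher ratio named first, with bars for 95% counting intervals, over 17 pairs. The interval leaves out 0 in 7 pairs, all from the conventional, Kif1 and depolymerase groups, with Kif1c minus Kif1a at 0.43 the largest.

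Kinesins of other neuronal cargo and of the growth cone had ratios near 1. All 8 lay below 1, 1 of 8 (12.5%) was at least 1.2-fold lower against 15.7% of all tested genes, and the median log2 ratio was -0.06. Kif21b, which slows microtubule growth in neurons and had the most reads of the family, had 11963 reads in the transgenic and 12302 in the WT library, a ratio of 0.955 (0.932 to 0.980). Its relative Kif21a had 2075 against 2112 reads and a ratio of 0.965 (0.908 to 1.03). Kif2a had 1801 against 1819 reads and a ratio of 0.973 (0.911 to 1.04); 19.2% of its exon bases lie in Dimt1 on the opposite strand. These well-covered genes differed little between the libraries. Kif16b, a motor of early endosomes, was the exception with 86 against 116 reads, 1.37-fold lower (1.03 to 1.84). Kif13a and Kif13b, which carry membrane receptors, had ratios of 0.993 (0.874 to 1.13) and 0.938 (0.824 to 1.07). Kifc2 had 914 against 963 reads, and Kif17, a motor of dendrites, 35 reads in each.

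The 6 kinesins of cilia and centrioles gave the fewest reads of the role groups, 596 in the transgenic and 589 in the WT library. Single genes had 24 to 348 reads, so small differences were not detectable at this depth. By size 2 of 6 were at least 1.2-fold lower, against 15.7% of all tested genes, and none was higher. Kif9, a motor of motile cilia, had 41 reads in the transgenic and 68 in the WT library and was 1.69-fold lower (1.13 to 2.55). Kif6, also linked to motile cilia, had 24 against 38 reads, 1.61-fold lower (0.942 to 2.81), with an interval that spanned 1. Kif9 was the single gene of the 40 marked as significant in the authors' deposited table, where 1931 of all 20421 genes were marked. The smallest fold among marked genes was 1.501. Kif1a and Kif11 had smaller adjusted p-values there than Kif9 and were not marked, with smaller folds. The deposited fold change is the ratio of the 1 column per genotype, so nothing is read from its p-values. Beside Kif9 and Kif6, 3 of the 5 tested motile cilia markers (Foxj1, Rsph1 and Spag6l) were at least 1.2-fold lower, against 15.7% of all tested genes. Rsph1 had only 10 against 37 reads, and its mean and that of Spag6l were below 10 CPM too. The other tested markers, Ccdc39 and Tekt1, had ratios of 1.09 and 0.992 with intervals that spanned 1. Dnah5 and Dnah11 fell under the minimum of 1 CPM. The 7 markers in the table summed to 40.4 against 50.04 CPM, with none at 0. The choroid plexus, an epithelium that bears motile cilia, had 4 measured markers (Ttr, Clic6, Folr1 and Aqp1), all lower, which summed to 12.4 against 691 CPM. The part of either in the values of Kif9 and Kif6 was not tested.

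The remaining cilia genes did not share that direction. Kif19a, which trims motile cilia, had 39 against 38 reads, and Kif27 had 53 against 44 reads and a ratio of 1.18 (0.779 to 1.81). Kif7, a regulator of Hedgehog signals at the tip of the primary cilium, had 348 against 313 reads and a ratio of 1.09 (0.935 to 1.28). Kif24, which acts at centrioles, had 91 against 88 reads. All 4 intervals spanned 1.

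Of the genes outside these groups, Kif1c had 890 against 758 reads and a ratio of 1.15 (1.05 to 1.27). Kifc3, a motor known from epithelia, had 225 against 281 reads, 1.27-fold lower (1.06 to 1.52). Kif26a and Kif26b, kinesins without the usual motor activity, had ratios of 1.01 (0.965 to 1.06) and 0.992 (0.876 to 1.13). Kif1bp had 1273 against 1285 reads. Kif26a had the fifth highest level of the family per length, and its ratio was close to 1.

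Partners of the mitotic motors stood on the same side. All 16 in a list of spindle and cytokinesis genes had ratios above 1, 8 of 16 were at least 1.2-fold higher against 11.5% of all tested genes, and the median log2 ratio was 0.28. Cenpe, a kinetochore kinesin without a Kif symbol, had 759 against 587 reads and a ratio of 1.27 (1.14 to 1.42). Stard9, the other kinesin listed without a Kif symbol, lay on the opposite side, with 168 against 204 reads and a ratio of 0.809 (0.656 to 0.997). Tpx2, a spindle assembly factor, had 2271 against 1799 reads and a ratio of 1.24 (1.17 to 1.32). Ect2, which starts the contractile ring, had 734 against 504 reads and a ratio of 1.43 (1.28 to 1.61). The chromosomal passenger genes Birc5 and Aurkb, the cargo of Kif20a among them, had ratios of 1.31 (1.197 to 1.44) and 1.27 (1.17 to 1.39). Racgap1, the partner of Kif23 in centralspindlin, had 2719 against 2443 reads and a ratio of 1.09 (1.03 to 1.16), and it was below 1.2-fold.

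Adaptors and cargo links of the transport motors had ratios on both sides of 1. Of 20, 12 had ratios below 1, 1 was at least 1.2-fold lower (15.7% of all tested genes were) and none higher, and the median log2 ratio was -0.08. Arl8a, a small GTPase that couples lysosomes and synaptic vesicle precursors to kinesin, had 5119 against 6185 reads, 1.23-fold lower (1.18 to 1.28). Its relative Arl8b had 1794 against 1547 reads and a ratio of 1.14 (1.06 to 1.22). Kidins220 was 1.15-fold lower (1.11 to 1.19), and the scaffolds Mapk8ip2 and Mapk8ip1 had ratios of 0.893 (0.855 to 0.932) and 0.905 (0.869 to 0.943). Kifap3, the subunit that completes heterotrimeric kinesin, had 2618 against 2885 reads, 1.12-fold lower (1.06 to 1.18), beside 1.14-fold for Kif3a and 1.21-fold for Kif3b. The light chains Klc1 and Klc2 of conventional kinesin had ratios of 0.952 (0.924 to 0.980) and 0.930 (0.883 to 0.980); like Arl8b, Kifap3 and Racgap1, they are named for their ties to the genes above and were chosen after their values were seen.

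Dynein, the motor that carries cargo back towards the cell body, showed no common direction. Of 19 dynein, dynactin and cofactor genes, 1 was at least 1.2-fold higher and 1 lower (11.5% and 15.7% of all tested genes were), the median log2 ratio was 0.02, and the sums were 3511 and 3512 CPM. Dync1i1, the intermediate chain of neurons, had 858 against 1254 reads, 1.49-fold lower (1.36 to 1.62). Nde1, a dynein cofactor of dividing progenitors, had 1561 against 1186 reads and a ratio of 1.29 (1.198 to 1.40). The light chain gene Dynll1 had a ratio of 1.16 (1.12 to 1.198), and Dctn1, the largest dynactin subunit, was 1.12-fold lower (1.08 to 1.15). The named genes of this list thus lay on both sides of 1.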

How the data were processed

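The submitters' processing notes name TopHat2 2.0.12, Bowtie2 2.2.3, HTSeq 0.6.0 and the build mm9. The authors deposited raw read counts and CPM for each genotype, with the ratio of the CPM columns as fold change, its log2 value, p-values and adjusted p-values. The sources used here give neither the strand setting nor the handling of shared reads. Coordinates in the table match GRCm38: 91.6% of 20388 identifiers had the same start and end in GENCODE M21, from which exon lengths, overlaps and shared 50-base stretches were computed. CPM ratios were given exact conditional (Clopper-Pearson) intervals, with edgeR's TMM and RLE factors as alternatives; no count test was run, as there is 1 column per genotype. Every member is described; partners are named, up to 4 per list, by how large the difference was against its counting error. The members, lists, fold of 1.2 and tests were chosen with earlier results of these data known. Kif2b, Kif12, Kif25 and Kif28 of the lists, and Kcnj13 of the markers, were not analysed here. The interval code was tested on simulated data. Tools were Python 3.11.15, NumPy 2.4.6, pandas 2.3.3, SciPy 1.17.1, Matplotlib 3.10.9, R 4.3.3 and edgeR 4.0.16.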

Additional observations from a re-analysis of the deposited data

How the results depend on the processing

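Over all alternatives run, the median log2 ratio stayed between 0.29 and 0.31 for mitotic kinesins, between -0.22 and -0.17 (with RLE scaling) for axonal kinesins, and between 0.48 and 0.51 for their difference. The count of mitotic kinesins called higher, 8 of 13, was 10 with TMM or RLE scaling and 0 at a fold of 1.5 or 2. The count of axonal kinesins called lower, 1 of 8, was 0 with TMM or RLE scaling, 5 at a fold of 1.1, 0 at 1.5 or 2, 7 by counting intervals, and 0 among the neuron-enriched genes alone. Over all genes, 3607 were called higher and 4658 lower without an expression minimum, 672 and 796 at a minimum mean of 10 CPM, 3413 and 4054 at a fold of 1.1, 369 and 762 at 1.5, and 76 and 266 at 2. Leaving out members with at least 10% of exon bases in another gene, an alternative chosen after seeing the data, left 7 of 11 mitotic kinesins called higher. No paired analysis was possible because there is 1 column per genotype. With 24 and 38 reads, Kif6 had the widest interval.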
